A study of Mus musculus with 6 samples.

Results

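Enc1, Smoc2, Pip4k2b and Atxn7l3b were lower in every library of mouse hippocampus labelled shHepaCAM than in any library labelled shControl, by 29.0% to 51.2% of the control mean. They encode a neuronal actin-binding protein, a secreted matrix protein, a lipid kinase and a small relative of a chromatin complex subunit. These 4 genes, of 29872 in the files, were chosen by symbol because they fell with little spread between libraries. Sterol genes were left out of the choice, so that none of the 4 is an enzyme of sterol synthesis was fixed beforehand. Their levels and differences between the groups therefore chose them and are given as a description, with no test. All 4 passed the filter of a mean of at least 1 RPKM (read counts corrected for the length of a gene and the depth of a library) over the 6 libraries.

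The tissue was hippocampus of C57BL/6J mice. In the shHepaCAM group (3 libraries, genotype label HepaCAM knockdown), an adeno-associated virus given into the CA1 field on both sides was used to lower Hepacam, which encodes a cell adhesion molecule of astrocytes, by a short hairpin RNA. The shControl group (3 libraries) carries the genotype label WT, and the labels do not say what vector, if any, its mice received. Neither the promoter of the vector, nor the age and sex of the mice, nor whether each library came from its own mouse is given, so the spread between libraries may be technical. The study asked how hippocampal gene expression differs after hepaCAM knockdown.

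Enc1 (ectodermal-neural cortex 1) belongs to the BTB and kelch family, whose members bind the ubiquitin ligase scaffold CUL3 through one domain and a partner through the other. It binds actin and is abundant in forebrain neurons. Smoc2 is a secreted calcium-binding protein of the SPARC family, which sits in the extracellular matrix and modulates growth factor signals and cell attachment. Pip4k2b is one of 3 kinases that turn phosphatidylinositol 5-phosphate into phosphatidylinositol 4,5-bisphosphate. Atxn7l3b resembles Atxn7l3, a subunit of the deubiquitinase module of the transcription coactivator SAGA. It binds ENY2, another subunit of that module, in the cytoplasm.

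Because each of the 4 genes has a relative whose reads could be confused with its own, their coding sequences were compared first, as GENCODE M21 gives them. The Atxn7l3b coding sequence is the shortest, at 291 bases without the stop codon, and lies in a transcript of 1 exon. Of its bases 217 (74.6%) were identical in the alignment with Atxn7l3. The longest run shared by both coding sequences was 16 bases, and that shared by the full transcripts 24 bases.

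For the other 3 genes, the stretch around the longest run shared with each relative is shown, 5′ to 3′, with that run in capitals, to let the reader see how far each pair can be told apart. Enc1 and Klhl25, which is also called ENC2, have coding sequences of the same length, 1767 bases, with 71.2% identity over aligned bases and a longest shared run of 20 bases.
Enc1: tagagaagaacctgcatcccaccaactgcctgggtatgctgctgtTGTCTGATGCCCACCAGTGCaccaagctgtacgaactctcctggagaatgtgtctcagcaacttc
Klhl25: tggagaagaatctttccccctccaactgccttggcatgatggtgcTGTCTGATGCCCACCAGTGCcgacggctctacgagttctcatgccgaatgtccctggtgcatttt
Smoc2 and Smoc1 had 67.6% identity and a longest shared run of 33 bases, the longest among these pairs.
Smoc2: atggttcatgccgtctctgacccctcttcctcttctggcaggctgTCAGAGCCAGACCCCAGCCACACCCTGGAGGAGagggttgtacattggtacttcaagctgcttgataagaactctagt
Smoc1: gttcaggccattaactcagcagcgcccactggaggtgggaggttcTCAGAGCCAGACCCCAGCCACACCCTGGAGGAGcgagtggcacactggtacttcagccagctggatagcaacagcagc
Pip4k2b had 75.1% identity to Pip4k2a, with a longest shared run of 17 bases, and 71.8% to Pip4k2c, with 20 bases.
Pip4k2b: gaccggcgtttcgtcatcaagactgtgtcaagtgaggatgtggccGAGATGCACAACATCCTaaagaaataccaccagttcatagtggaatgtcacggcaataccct
Pip4k2a: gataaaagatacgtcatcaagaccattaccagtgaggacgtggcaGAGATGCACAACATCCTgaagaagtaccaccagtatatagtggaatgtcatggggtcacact
The run shared with Pip4k2c lies in another stretch of Pip4k2b.
Pip4k2b: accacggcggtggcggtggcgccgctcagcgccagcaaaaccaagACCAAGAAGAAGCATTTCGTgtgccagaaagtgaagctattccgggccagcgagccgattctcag
Pip4k2c: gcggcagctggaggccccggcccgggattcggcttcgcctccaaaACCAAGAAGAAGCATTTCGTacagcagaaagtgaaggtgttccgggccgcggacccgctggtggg
The sources used here do not give the read length or how reads with several possible places were treated.

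The libraries held between 14903198 and 17341842 reads. Hepacam, the targeted gene, was between 33.4 and 37.3 RPKM in control and between 20.9 and 24.4 RPKM in knockdown libraries, with no overlap. Choroid plexus markers set shControl replicate 1 and shHepaCAM replicate 3 apart, with a summed level of 118 and 70.7 RPKM against 2021 to 4892 RPKM in the other 4 libraries. In limma with a mean-variance trend on log2(RPKM + 1), with Benjamini-Hochberg adjustment, 255 of 13864 genes were called lower at an adjusted p of 0.05, which is 1.84% of genes tested, and 587 (4.23%) were called higher. The count of lower genes became 43, 28 or 23 when control replicate 1, 2 or 3 was left out, and 316, 129 or 77 when knockdown replicate 1, 2 or 3 was. It was 13 when the 2 libraries poor in choroid plexus transcripts were left out. In 10.7% of genes tested, all 3 knockdown libraries lay under all 3 control libraries, as they did in the 4 genes by choice.

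Enc1 (ENSMUSG00000041773, chromosome 13) had 244, 230 and 242 RPKM in shControl replicates 1, 2 and 3. The values of shHepaCAM replicates 1, 2 and 3 were 148, 135 and 152 RPKM. The groups did not overlap, and 78.6 RPKM separated the lowest control from the highest knockdown library. The means were 239 ± 7.41 and 145 ± 8.42 RPKM (SD, n = 3 each), so the transcript was 39.3% lower, a log2 difference of -0.72 (SE 0.07) on the log2(RPKM + 1) scale. Enc1 was the most abundant of the 4, with a mean over the 6 libraries above that of 99.0% of genes tested, and 55769 control and 33188 knockdown reads stood behind it.

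Smoc2 (ENSMUSG00000023886, chromosome 17) had 11.7, 11.7 and 11.9 RPKM in shControl replicates 1, 2 and 3. The values of shHepaCAM replicates 1, 2 and 3 were 6.34, 5.30 and 5.60 RPKM. It was the least abundant of the 4 and had the largest relative difference, 51.2% of the control mean. The control libraries had a coefficient of variation of 0.797%, against 9.34% in the knockdown group. The means were 11.8 ± 0.09 and 5.75 ± 0.54 RPKM (SD, n = 3 each), a log2 difference of -0.92 (SE 0.07). With 569, 574 and 501 control reads and 284, 242 and 260 knockdown reads, it had the fewest reads of the 4 genes. Its difference was -1.03 with a pseudocount of 0.1, since the added 1 RPKM weighs on a gene at this level.

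Pip4k2b (ENSMUSG00000018547, chromosome 11) had 30.9, 30.1 and 30.8 RPKM in shControl replicates 1, 2 and 3. The values of shHepaCAM replicates 1, 2 and 3 were 20.6, 20.8 and 19.3 RPKM. The groups were 9.29 RPKM apart, and both were narrow. The means were 30.6 ± 0.45 and 20.2 ± 0.79 RPKM (SD, n = 3 each), 33.9% lower, with a log2 difference of -0.57 (SE 0.05). Its pooled spread within groups, 0.04 on the log2 scale, was smaller than that of all but 3.68% of genes tested. For Enc1, Atxn7l3b and Smoc2, 16.4%, 20.1% and 25.1% of genes tested had a smaller spread. Little spread was itself a reason for choosing these genes.

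Atxn7l3b (ENSMUSG00000074748, chromosome 10) had 38.6, 39.7 and 38.5 RPKM in shControl replicates 1, 2 and 3. The values of shHepaCAM replicates 1, 2 and 3 were 30.0, 26.4 and 26.6 RPKM. The knockdown library nearest to the controls, replicate 1, was still 8.54 RPKM under the lowest of them. The means were 38.9 ± 0.64 and 27.6 ± 2.04 RPKM (SD, n = 3 each), 29.0% lower, the smallest relative difference of the 4, with a log2 difference of -0.48 (SE 0.07). Of the 255 genes called lower, 127 had a larger log2 fall than Atxn7l3b, 82 a larger one than Pip4k2b, 39 a larger one than Enc1 and 26 a larger one than Smoc2.

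**Figure D1:**
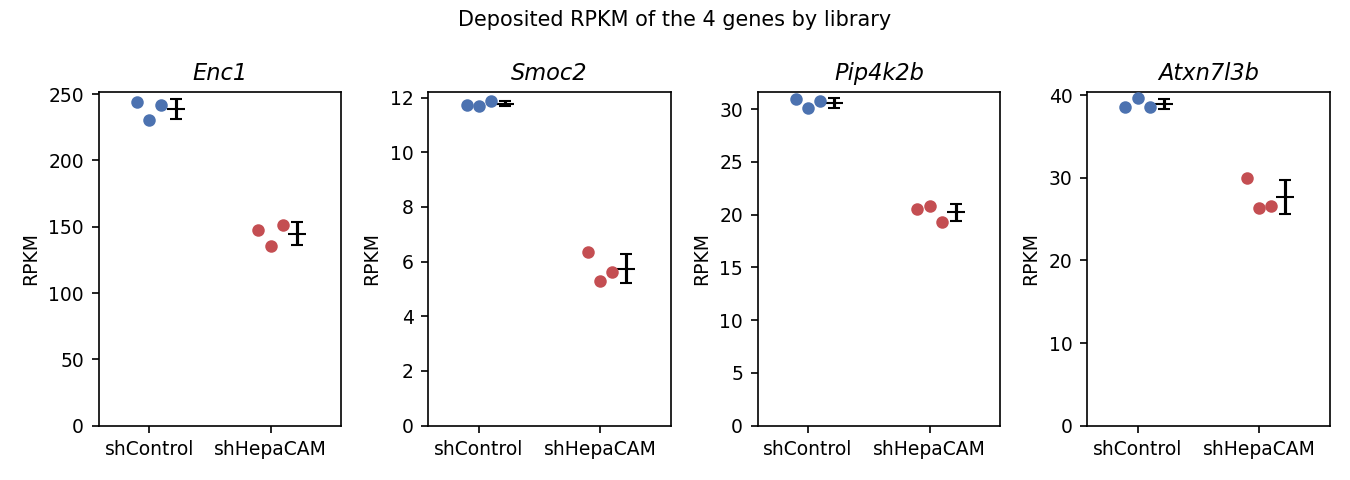
Deposited RPKM (y axis, from 0) of the 4 genes in the 3 shControl (blue) and 3 shHepaCAM (red) libraries, with replicates 1 to 3 from left to right and the group mean and SD as a black bar. Each gene is lower in all knockdown libraries, from 239 to 145 RPKM for Enc1 and from 11.8 to 5.75 RPKM for Smoc2.

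Within the knockdown group the 4 genes did not share one order of libraries. Enc1, Smoc2 and Atxn7l3b were lowest in shHepaCAM replicate 2, Pip4k2b and Hepacam in replicate 3. Smoc2 and Atxn7l3b were highest in replicate 1, Enc1 in replicate 3. The libraries low in choroid plexus transcripts held the highest Enc1 value of each group. Without both of them the log2 differences were -0.73 for Enc1, -0.91 for Smoc2, -0.54 for Pip4k2b and -0.46 for Atxn7l3b, close to those over all libraries. Leaving out 1 library at a time gave -0.75 to -0.67 for Enc1, -0.99 to -0.87 for Smoc2, -0.59 to -0.54 for Pip4k2b and -0.54 to -0.45 for Atxn7l3b.

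The length of the 3′ untranslated region was a property not used to choose the genes, and it varied among them. Including the stop codon, that region measured 3705 bases in Pip4k2b, 3002 in Atxn7l3b, 2532 in Enc1 and 1264 in Smoc2, against a median of 986 over the 12292 genes tested that have a coding transcript. These lengths exceeded those of 91.5%, 86.5%, 81.6% and 58.1% of such genes. GC content was 53.8% in Pip4k2b, 51.6% in Smoc2, 50.8% in Enc1 and 46.6% in Atxn7l3b, on both sides of the median of 50.9%. Coding length ran from 291 bases in Atxn7l3b, shorter than in all but 1.83% of genes, to 1767 bases in Enc1. Whether these properties bear on the differences was not tested.

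The closest relatives were taken by sequence family, not by these values, and in all 5 of them the groups overlapped. Whether they differ from the 4 genes in their response was not tested. Klhl25 had 3.26, 2.87 and 2.58 RPKM in the control libraries, in replicate order, and 2.62, 2.19 and 2.72 RPKM in the knockdown libraries. Its groups overlapped, and limma gave a log2 change of -0.15 (SE 0.11) with an adjusted p of 0.435. Per length, Enc1 made up 98.8% ± 0.13 of the Enc1 and Klhl25 sum in control and 98.3% ± 0.10 in knockdown libraries (SD, n = 3 each). Smoc1, the other SMOC gene, had means of 3.62 ± 0.56 and 4.36 ± 0.39 RPKM (SD, n = 3 each), which limma gave as a log2 change of 0.22 (SE 0.11) at an adjusted p of 0.273. The share of Smoc2 in the sum of both genes thus went from 76.6% ± 2.58 to 56.8% ± 2.32 (SD, n = 3 each).

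Of the 3 kinases of phosphatidylinositol 5-phosphate, Pip4k2a had means of 24.4 ± 1.32 and 25.6 ± 1.13 RPKM, and Pip4k2c of 27.7 ± 1.54 and 24.7 ± 2.66 RPKM (SD, n = 3 each). Their log2 changes were 0.07 and -0.16 (SE 0.06 and 0.09), with limma adjusted p-values of 0.554 and 0.305. With scaling to the median gene, the value of Pip4k2a turned to -0.02. Pip4k2b was the most abundant of the 3 in every control library, at 37.0% ± 0.40 of their sum, and the least abundant in every knockdown library, at 28.7% ± 1.67 (SD, n = 3 each). The sum of all 3 went from 82.7 ± 0.69 to 70.5 ± 2.66 RPKM (SD, n = 3 each). Atxn7l3 had means of 54.9 ± 0.87 and 51.5 ± 3.52 RPKM (SD, n = 3 each), a log2 change of -0.09 (SE 0.06) at an adjusted p of 0.41 in limma, and the share of Atxn7l3b in the sum of the pair went from 41.5% ± 0.76 to 34.9% ± 0.67.

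**Figure D2:**
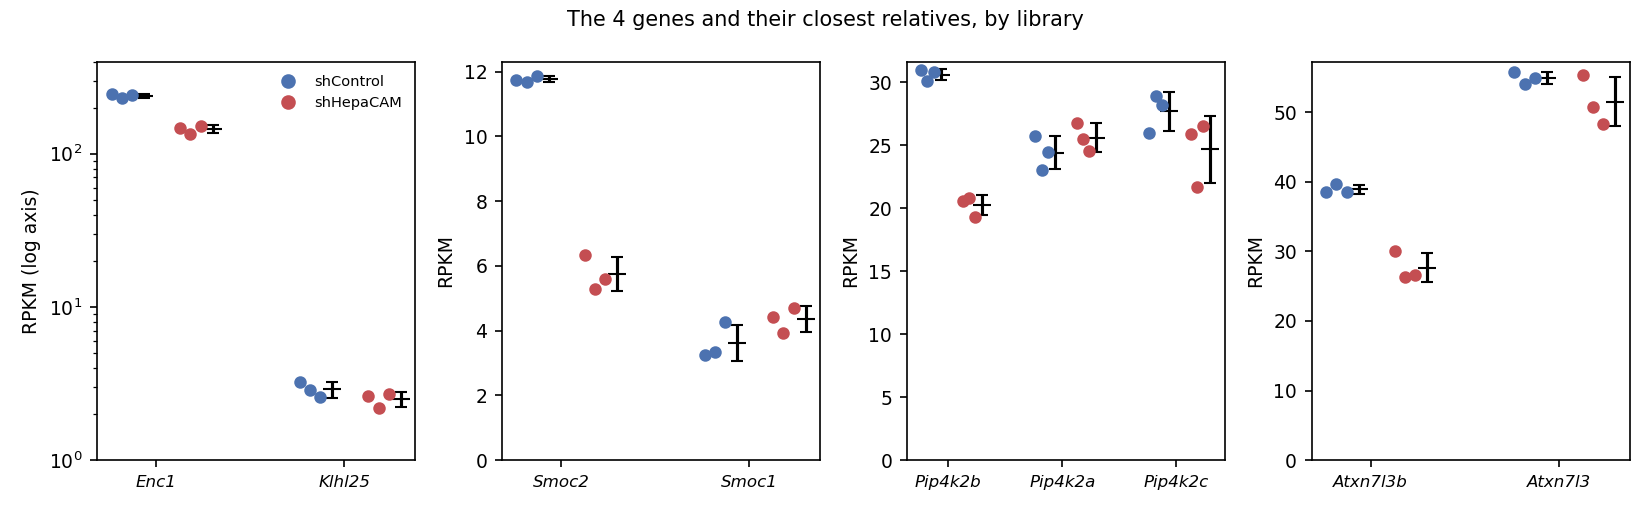
RPKM of the 4 genes and their closest relatives in shControl (blue) and shHepaCAM (red) libraries, with group mean and SD as a black bar; the y axis starts at 0 except for Enc1 and Klhl25, where it is logarithmic. Pip4k2b falls from above Pip4k2a and Pip4k2c to below both, and the groups of Klhl25, Smoc1, Pip4k2a, Pip4k2c and Atxn7l3 overlap.

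Beyond the closest relatives, 5 lists of relatives and partners held 164 genes, of which 143 were tested. In limma 3 were called lower and 3 higher, 4.20% in all, against 6.07% of all genes tested. The median log2 change over all genes tested was 0.05. At an unadjusted limma p under 0.05, the level at which each of these 5 lists is also counted, 7.92% of all genes tested were lower and 16.3% higher.

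SAGA and the TREX-2 complex, which shares ENY2 with it, were the list with genes called lower: 3 of 27 tested (11.1%, against 1.84% of all genes), and 0 were called higher by limma or by limma-voom. At an unadjusted p under 0.05, 4 were lower and 2 higher, and the list's median was 0.08. Usp22, the ubiquitin protease that is the catalytic subunit of the deubiquitinase module, had 51.4, 49.1 and 50.4 RPKM in the control libraries. In the knockdown libraries it had 35.4, 35.3 and 31.6 RPKM, under every control library. It fell by 0.55 on the log2 scale (SE 0.06, limma adjusted p = 0.00854), from 50.3 ± 1.12 to 34.1 ± 2.15 RPKM (SD, n = 3 each).

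Kat2a, the acetyltransferase of SAGA, fell from 22.6 ± 0.43 to 18.1 ± 0.85 RPKM (SD, n = 3 each), a log2 change of -0.31 (limma adjusted p = 0.031). Taf12, a histone-fold subunit that SAGA shares with TFIID, fell from 4.83, 5.03 and 5.13 RPKM in the control to 3.99, 3.67 and 3.54 RPKM in the knockdown libraries, a log2 change of -0.34 (limma adjusted p = 0.0456). Eny2, the partner of the Atxn7l3b protein, lay higher in each knockdown library, with means of 17.2 ± 0.37 and 19.8 ± 0.53 RPKM, but did not pass (log2 change 0.19, SE 0.05, limma adjusted p = 0.0887). Ataxin-7, which anchors the deubiquitinase module, and its relatives, encoded by Atxn7, Atxn7l1 and Atxn7l2, had log2 changes of 0.11, 0.10 and 0.28 and did not pass (limma adjusted p = 0.504, 0.55 and 0.159).

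These calls depended on single libraries to different degrees. Usp22 lost its call in 2 of 16 alternatives (adjusted p of 0.00349 to 0.0663 over all of them). Its adjusted p was 0.0502 without shControl replicate 3 and 0.0663 without the 2 libraries poor in choroid plexus transcripts, with a log2 change of -0.55 and -0.48. Kat2a lost its call in 9 of 16 alternatives (adjusted p of 0.0221 to 0.135 over all of them) and Taf12 in 9 of 15 (0.0299 to 0.189). In the list as a whole, leaving out control replicate 1, 2 or 3 left 1, 1 or 0 genes called lower, and leaving out knockdown replicate 1, 2 or 3 left 2, 1 or 1. No gene was called without both low libraries.

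Among 39 genes tested of the kelch and BTB family with Cul3 and its partner Rbx1, limma called 0 lower and 1 higher, and limma-voom gave the same counts. Over all genes tested, limma called 1.84% lower and 4.23% higher. At an unadjusted p under 0.05, 0 were lower and 5 higher. Enc1 was by far the most abundant kelch gene per length: its mean over the 6 libraries was 4.90 times that of Kbtbd11, the next. Klhl40, known from skeletal muscle, rose from 1.73 ± 0.06 to 4.58 ± 1.70 RPKM (SD, n = 3 each). Its log2 change was 0.99 (SE 0.20) with a limma adjusted p of 0.0344. It lost its call in 6 of 15 alternatives, among them each control library left out (adjusted p of 0.0956 to 0.118). Cul3 had 23.9 ± 1.18 RPKM in control and 22.3 ± 0.71 RPKM in knockdown libraries (SD, n = 3 each), with an adjusted p of 0.368 in limma. The family's median log2 change was 0.04.

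Enc1 is also known to lower the protein level of the transcription factor NRF2, so that factor and its targets were listed. The values here are RNA levels, and NRF2 protein was not measured. None of the 19 tested passed in limma, while at an unadjusted p under 0.05, 2 were lower and 4 higher. In limma-voom 0 were lower and 1 higher, Nfe2l2 itself, which encodes NRF2. Nfe2l2 stood at 5.50 ± 0.71 and 7.85 ± 0.84 RPKM (SD, n = 3 each), with no overlap between groups and a log2 change of 0.45 (SE 0.11, adjusted p = 0.0558 in limma, 0.0438 in limma with a filter at a mean of 5 RPKM and 0.0364 in limma-voom). Of its targets, Hmox1, the heme oxygenase, had a log2 change of 0.41 (limma adjusted p = 0.0917), G6pdx, of the pentose phosphate pathway, 0.23 (0.098), and Me1, malic enzyme, -0.35 (0.092). Sqstm1, an autophagy receptor that binds kelch proteins, was at 0.04 (limma adjusted p = 0.743), and its sign turned, to -0.05, with scaling to the median gene.

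Of the 15 genes tested of the SPARC family and other matricellular proteins, 0 passed in limma or limma-voom. At an unadjusted p under 0.05, 4 were lower and 4 higher, and without shHepaCAM replicate 1 limma called 2 lower. The smallest p-values belonged to the thrombospondins Thbs4 and Thbs3, with log2 changes of 0.43 and 0.32, and to Spock2, a brain proteoglycan, and Ccn3, with -0.24 and -0.38 (limma adjusted p of 0.0959 to 0.136). Spock2 was among those called without shHepaCAM replicate 1 (adjusted p = 0.0336). Sparcl1, made by astrocytes, was at 497 ± 31.0 and 435 ± 20.6 RPKM, and Sparc at 77.8 ± 10.3 and 90.3 ± 8.03 RPKM (SD, n = 3 each; limma adjusted p of 0.181 and 0.271). Spock1, of the same family, had 23.4 ± 1.60 RPKM in control and 15.8 ± 5.12 RPKM in knockdown libraries (SD, n = 3 each). Its groups did not overlap, but it did not pass (log2 change -0.58, limma adjusted p = 0.138). Spock3 and Fstl1, of the same list, were higher in each knockdown library, with log2 changes of 0.30 and 0.23. They did not pass either (limma adjusted p = 0.198 and 0.137). Of the 15 genes tested, 9 had a positive and 6 a negative log2 change, with a median of 0.22. Smoc2, which was chosen for its fall, stood at -0.92.

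Of 43 phosphoinositide kinases and phosphatases tested, limma and limma-voom each called 0 lower and 2 higher, where limma called 4.23% of all genes higher, with 2 lower and 7 higher at an unadjusted p under 0.05. Inpp5d, a phosphatase of blood and microglial cells, rose from 2.11 ± 0.30 to 3.66 ± 0.39 RPKM, and Pik3r3, a regulatory subunit of phosphatidylinositol 3-kinase, from 6.22 ± 0.34 to 10.6 ± 2.28 RPKM (SD, n = 3 each). Their log2 changes were 0.59 and 0.67, with limma adjusted p-values of 0.0308 and 0.0356. Each lost its call without any 1 of the control libraries (adjusted p of 0.082 to 0.107 for Inpp5d and of 0.104 to 0.114 for Pik3r3), and both lost it without the 2 libraries low in choroid plexus transcripts. Without shHepaCAM replicate 2, and likewise without replicate 3, 1 gene of the list was called higher. The median of the list was 0.03.

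**Figure D3:**
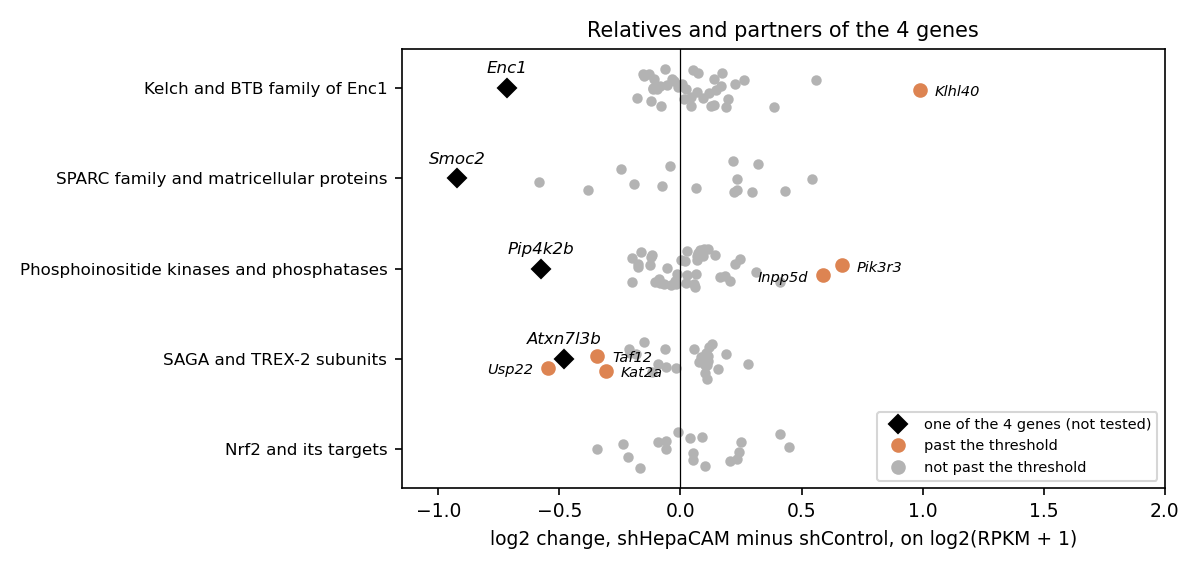
Log2 change on the log2(RPKM + 1) scale, shHepaCAM minus shControl (x axis), for each tested gene of the 5 lists (points, spread vertically only for legibility). Orange points passed limma at an adjusted p of 0.05, grey points did not, and black diamonds are the 4 genes described, shown without a test. In the list of SAGA and TREX-2, 12 log2 changes were negative, those of Usp22, Taf12 and Kat2a among them, and 15 were positive.

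Summed markers of microglia and of some neuron lists moved with the group as well, those of neurons in both directions. Since this is bulk tissue, fewer cells of a type and less RNA per cell cannot be told apart. The summed level of 10 pan-neuronal markers was 1153 to 1171 RPKM in control and 880 to 1061 RPKM in knockdown libraries, lowest in shHepaCAM replicate 2, where Enc1, Smoc2 and Atxn7l3b were also lowest and Pip4k2b was highest among the knockdown libraries. Of these, 2 of 10 were called lower, where limma called 1.84% of all genes tested lower and 4.23% higher. They were Snap25, a vesicle fusion protein, by 0.70, and Tubb3, a neuronal tubulin, by 0.48 (limma adjusted p = 0.0441 and 0.0424). At an unadjusted limma p under 0.05, 4 pan-neuronal markers were lower and 0 higher. No pan-neuronal marker was called when any 1 control library, shHepaCAM replicate 3 or both low libraries were left out. The 9 markers of CA2 and CA3 pyramidal neurons summed to 294 to 301 RPKM in control and 193 to 248 RPKM in knockdown libraries. Of the 8 tested, 1 was called, Nptx1, a secreted pentraxin of synapses, which fell by 1.04 (limma adjusted p = 0.00777), and no marker of this list was called without both low libraries. At an unadjusted limma p under 0.05, 3 of this list were lower and 1 higher.

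CA1 markers lay higher in each knockdown library, summing to 171 to 177 RPKM in control and 181 to 232 RPKM in knockdown libraries. Of the 8 CA1 markers tested, 6 had a positive and 2 a negative log2 change. Dentate granule neuron markers summed to 119 to 150 and 118 to 147 RPKM, and neocortical neuron markers to 74.0 to 81.9 and 65.3 to 75.2 RPKM. Over all genes tested, limma called 1.84% lower and 4.23% higher. Of the dentate markers 1 of 9 was called higher, Trpc6, a cation channel gene, which rose by 0.73 on the log2 scale (limma adjusted p = 0.0308). No dentate marker was called when any 1 control library, shHepaCAM replicate 3 or both low libraries were left out. At an unadjusted limma p under 0.05, 2 dentate markers were lower and 1 higher. No CA1 or neocortical marker was called in limma, where at an unadjusted p under 0.05 no CA1 marker was lower and 1 higher, and 2 neocortical markers were lower and 1 higher. In limma-voom, 1 CA1 and 1 neocortical marker were called higher, 1 dentate marker lower and 1 higher, 3 pan-neuronal markers lower and 2 of CA2 and CA3 lower. Microglia markers summed to 408 to 475 RPKM in control and 764 to 905 RPKM in knockdown libraries, with 7 of 10 called higher, 3 to 8 when 1 library was left out and 5 without both low libraries. The 10 markers of lymphocytes and plasma cells rose from between 3.76 and 5.99 RPKM to between 510 and 1829 RPKM, mostly Igkc. Only 4 passed the filter, which takes the mean of all 6 libraries and can be passed through high knockdown values alone. That 3 of these 4 were called higher is therefore a description and not separate support. Astrocyte markers spanned 850 to 948 and 844 to 933 RPKM, and 1 of 10 was called lower, the glutamate transporter gene Slc1a2 (log2 change -0.37, limma adjusted p = 0.0181). No astrocyte marker was called without any 1 control library, with the replicate block or without both low libraries. Oligodendrocyte, endothelial and fibroblast markers overlapped between the groups in their sums, and 0 were called in limma or limma-voom, with 0 lower and 2 higher at an unadjusted p under 0.05. No marker of these lists was at 0 in all libraries. The part of these shifts in the lower levels of the 4 genes was not tested.

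**Figure D4:**
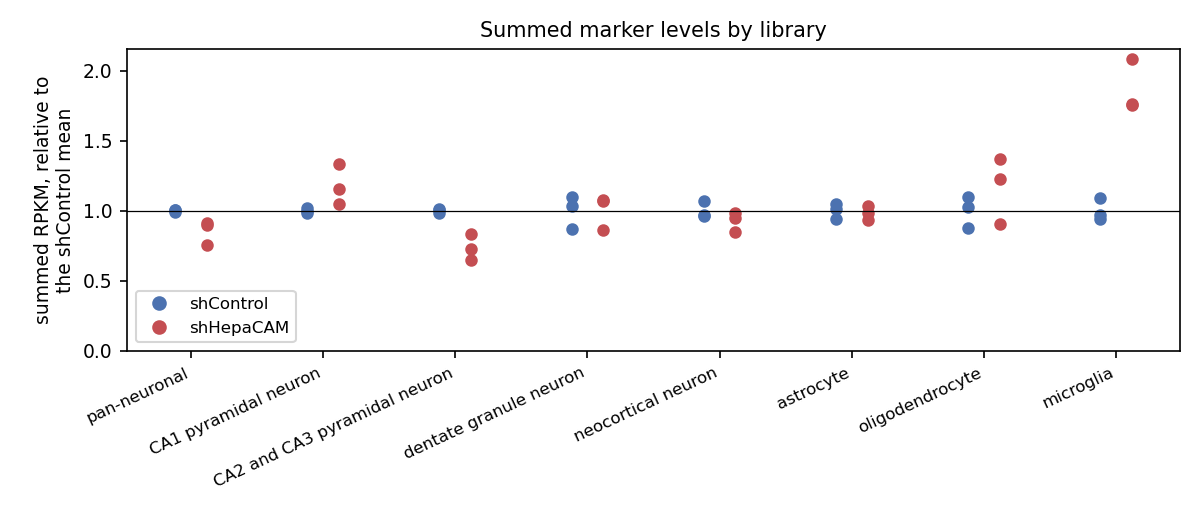
Summed RPKM of 8 marker lists in each library, divided by the mean of the shControl libraries (y axis, from 0), for shControl (blue) and shHepaCAM (red). The pan-neuronal sum and that of CA2 and CA3 lie lower in the knockdown libraries, the CA1 and microglia sums higher, and the dentate and astrocyte sums overlap.

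Genes whose levels followed each of the 4 most closely were ranked by Pearson's r of log2(RPKM + 1) over the 6 libraries. As the 4 genes were chosen for a clean separation of the groups, this ranking favours other genes with such a separation, and the libraries share depth and tissue makeup, so the values are a description. Closest to Enc1 were Mgll, which degrades an endocannabinoid, and Hpca, the calcium sensor hippocalcin of hippocampal pyramidal neurons, with r of 0.998 and 0.997. Hpca had 758, 721 and 768 RPKM in the control libraries, in replicate order, and 401, 327 and 403 RPKM in the knockdown libraries, and so followed Enc1 in its order of libraries within the knockdown group. Gng2, a G protein subunit, and Rdh11, a retinol dehydrogenase, were also among the 5 closest, with r of 0.995 and 0.994.

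Paqr8, Arl2bp, Lrp11, Got2 and Polr3k were closest to Smoc2, with r of 0.995 to 0.999. Got2, the mitochondrial aspartate aminotransferase, went from 38.6 ± 0.98 to 25.7 ± 1.75 RPKM, and Lrp11, a lipoprotein receptor relative, from 68.0 ± 1.07 to 42.6 ± 3.39 RPKM (SD, n = 3 each). For Pip4k2b the closest were Hsd17b7 and Sc5d, both enzymes of cholesterol synthesis, Usp22, Emc3, of a membrane insertion complex, and Spire1, an actin nucleator, with r of 0.994 to 0.998. Sc5d had 9.98, 9.68 and 8.60 RPKM in shHepaCAM replicates 1, 2 and 3, lowest in the same knockdown library as Pip4k2b. Close to Atxn7l3b were Pef1, Tm7sf2, Tex261 and Bsn, with r of 0.998 to 0.9995. Tm7sf2 is a sterol reductase, and Bsn, the presynaptic scaffold bassoon, went from 30.7 ± 0.64 to 17.1 ± 2.41 RPKM (SD, n = 3 each).

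Protein-coding genes that were the nearest tested on 1 side of the 4 were added after their values were seen. Their distances differ widely. Psmb3 and Cwc25, on either side of Pip4k2b at 1.66 and 0.777 kb, had log2 changes of 0.13 and 0.10 (limma adjusted p = 0.401 and 0.572). Arhgef28, 646 kb from Enc1, had a log2 change of -0.12 (0.384). Of those beside Smoc2, Dact2 was higher by 0.55 (limma adjusted p = 0.0362), in the opposite direction to Smoc2, and Thbs2 had a log2 change of 0.06 (0.811). Kcnc2, a potassium channel subunit and the tested gene before Atxn7l3b, lies 458 kb away. It was lower by 0.49 on the log2 scale (limma adjusted p = 0.0202), with means of 11.6 ± 0.34 and 7.99 ± 0.74 RPKM (SD, n = 3 each). Trhde, a peptidase gene 1470 kb from Atxn7l3b on the other side, was at -0.77 on the log2 scale and did not pass (SE 0.18, adjusted p = 0.0522 in limma). Whether position bears on these changes was not tested. Pip4k2b and Atxn7l3b each have an annotated gene on the other strand, Gm11614 at 0.235 to 0.953 RPKM and Gm26596 at up to 0.0758 RPKM. The overlap was taken from the ends of the genes, and whether their exons overlap was not examined. As the sources used here also do not give the strand setting, whether these pairs share reads is not known.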

How the data were processed

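RNA sequencing libraries from 6 samples of mouse hippocampus, 3 per group, were grouped by their titles. The deposited values, 1 per gene and library, were taken as RPKM. No file header names this unit, and it was inferred from the values, which are whole multiples of a step set by exon length and library depth. The submitters' processing notes list Bowtie2 2.0.6 and TopHat2 2.0.12, and the build mm39. The sources used here name no counter, annotation or strand setting. GENCODE M21, on another build, served for names (29805 of 29872 identifiers matched), transcript sequences and lengths, and for which genes lie next to or opposite each other. No coordinates of it are given, only distances between genes.

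Reads per library and gene were worked out from the steps of the RPKM values, whole within 0.01 read for 27390 genes with annotated exon lengths and for 2325 more with a length of their own. The test was limma 3.58.1 in R 4.3.3 on log2(RPKM + 1) for genes that averaged 1 RPKM or more, adjusted by Benjamini-Hochberg over all 13864 genes, and it was checked on simulated libraries. Fold changes on this scale understate those of low genes. Named relatives are those past the threshold (at most 6 per list), otherwise the 4 with the smallest p, and fixed partners. Spock1, Spock3, Fstl1, Atxn7, Atxn7l1 and Atxn7l2 were named outside this rule. Of the marker lists, those past the threshold were eligible. The 4 genes and all lists were chosen with earlier results of these data known. Alternatives were other scalings, pseudocount, filters, variance models, a replicate block and leaving out each library; limma-voom on the reads and leaving out the 2 libraries poor in choroid plexus transcripts were added after seeing the data. Some genes and 1 sequence are not reported here. Identity was computed on global alignments of coding sequences. Plots used Python 3.11.15 and matplotlib 3.10.9.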

Additional observations from a re-analysis of the deposited data

How the results depend on the processing

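All 4 genes kept their direction in each of 16 alternatives, which is no test of them. Their groups do not overlap, by choice, so leaving out libraries cannot reverse a sign. The filters, limma without trend and the replicate block cannot change their log2 differences. With scaling to the median gene the log2 differences were -0.81 for Enc1, -0.66 for Pip4k2b and -0.57 for Atxn7l3b, and for Smoc2 it was -1.03 with a pseudocount of 0.1 and -1.04 with limma-voom. Counts over all genes depended on the processing. Genes called lower numbered 255, and 48 with no filter, 153 in limma without trend and 13 without the 2 libraries poor in choroid plexus transcripts. With 1 library left out they ranged from 23 to 316. Genes called higher numbered 587, and 336 with scaling to the median gene, 390 with quantile normalization, 121 with no filter and 91 without both low libraries, with 75 to 551 when 1 library was left out. Scaling moved the split: 347 genes were lower against 336 higher with the median gene, and 341 against 390 with quantiles. Of the relatives, 6 were called, and 1 with no filter, 0 without both low libraries and 0 to 7 with 1 library left out. With a replicate block, 45 genes were lower, 112 higher and 1 relative was called. The numbers did not pair the libraries: deviations of same-numbered libraries correlated at -0.21, 0.02 and -0.14, and no library correlated best with its own number. The largest correlation, 0.27, was between shControl replicate 1 and shHepaCAM replicate 3, the 2 libraries poor in choroid plexus transcripts. The causes were not tested, except that leaving out libraries leaves fewer samples and no filter adds genes to the adjustment. Smoc2, at 242 to 574 reads per library, was the least deeply covered of the 4.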
